A study of Mus musculus with 15 samples.

Results

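The genes described here encode the machinery of regulated exocytosis, the release of stored hormone or transmitter when a secretory cell is stimulated. The set holds 48 genes, chosen by symbol for their known roles, and each matched 1 of the 55523 rows of the deposited gene table. RNA was measured by RNA-seq in 15 libraries of whole mouse pituitary, 1 library per sample. The animals came from a line in which PE, the enhancer that drives Nr5a1 in the pituitary, had been cut out. Nr5a1 encodes a nuclear receptor of gonadotropes, the cells that make LH and FSH. PE+/- mice, the controls, lacked the enhancer on 1 chromosome, so that every animal carried the deletion. PE-/- mice lacked it on both chromosomes, in all cells of the body. There were 4 PE+/- males, 4 PE-/- males, 4 PE+/- females and 3 PE-/- females. The labels gave neither age nor strain nor treatment, and they did not say whether each sample was a single animal, so that p-values measure only the spread between these samples.

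In a hormone-secreting cell, a dense-core granule is carried to the plasma membrane, docked by Rab proteins and their effectors, primed, and then fused when calcium enters. Fusion is driven by SNARE proteins, of which one kind sits on the granule (the VAMP proteins) and the others on the plasma membrane (syntaxins and SNAP proteins). Munc18 proteins guide the syntaxins, Munc13 and CAPS proteins prime the complex, complexins hold it, and the synaptotagmins include the calcium sensors. All endocrine cell types of the anterior pituitary release their hormones in this way, so that whole-gland RNA sums the machinery over all of them.

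Library totals ran from 12982794 to 30238443 counts. Levels are given as CPM, read counts relative to the TMM-scaled library total over the 15 libraries, and in comparisons between genes as CPM per kb of annotated exon. This length is the union of all annotated exons of a gene, which can exceed the length of a single transcript. The targeted gene Nr5a1 was lower in PE-/- than in PE+/- glands of both sexes, the log2 fold change being -7.19 in males (edgeR adjusted p = 0.0117) and of -5.72 in females (edgeR adjusted p = 0.000253). The summed level of 8 gonadotrope marker genes was 2786 to 4614 CPM in PE+/- males, 39.0 to 180 CPM in PE-/- males, 679 to 2325 CPM in PE+/- females and 77.0 to 133 CPM in PE-/- females. The list held Nr5a1 itself, and Spp1, Tgfbr3l, Grem1 and Nr0b1, which the authors reported as NR5A1-dependent from these glands. A lower sum was thus fixed in advance and is no separate evidence. Fshb made up most of it in PE+/- males, with a mean of 2705 CPM where the sum averaged 3633 CPM. In whole glands, fewer cells of a type and less RNA per cell cannot be told apart.

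The gland expressed nearly every member. Syt4, a synaptotagmin of granules that does not bind calcium in the usual way, had the highest level per length, with a mean of 333 ± 73.0 CPM per kb (SD, n = 15). Cplx2, a complexin, followed at 139 ± 19.1 CPM per kb. Syt13, another synaptotagmin, stood at 98.6 ± 19.6 CPM per kb, and Sytl4, the Rab27 effector granuphilin, at 82.1 ± 25.2 CPM per kb. Snap25, the neuronal and endocrine SNAP protein, reached 75.6 ± 18.9 CPM per kb. The ranges of Syt13, Sytl4 and Snap25 overlapped widely, so that their order was not separated by the spread between libraries. The order also depends on the annotated length: Syt4, Cplx2 and Syt13 have 1 annotated transcript each, Snap25 has 3 and Sytl4 5. By CPM alone Syt4 and Cplx2 again led, at 1294 and 684, while Snap25, at 513, stood above Sytl4 at 421 and Syt13 at 371. At the lower end, Unc13c, a Munc13 gene, averaged 0.220 ± 0.191 CPM per kb.

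**Figure D1:**
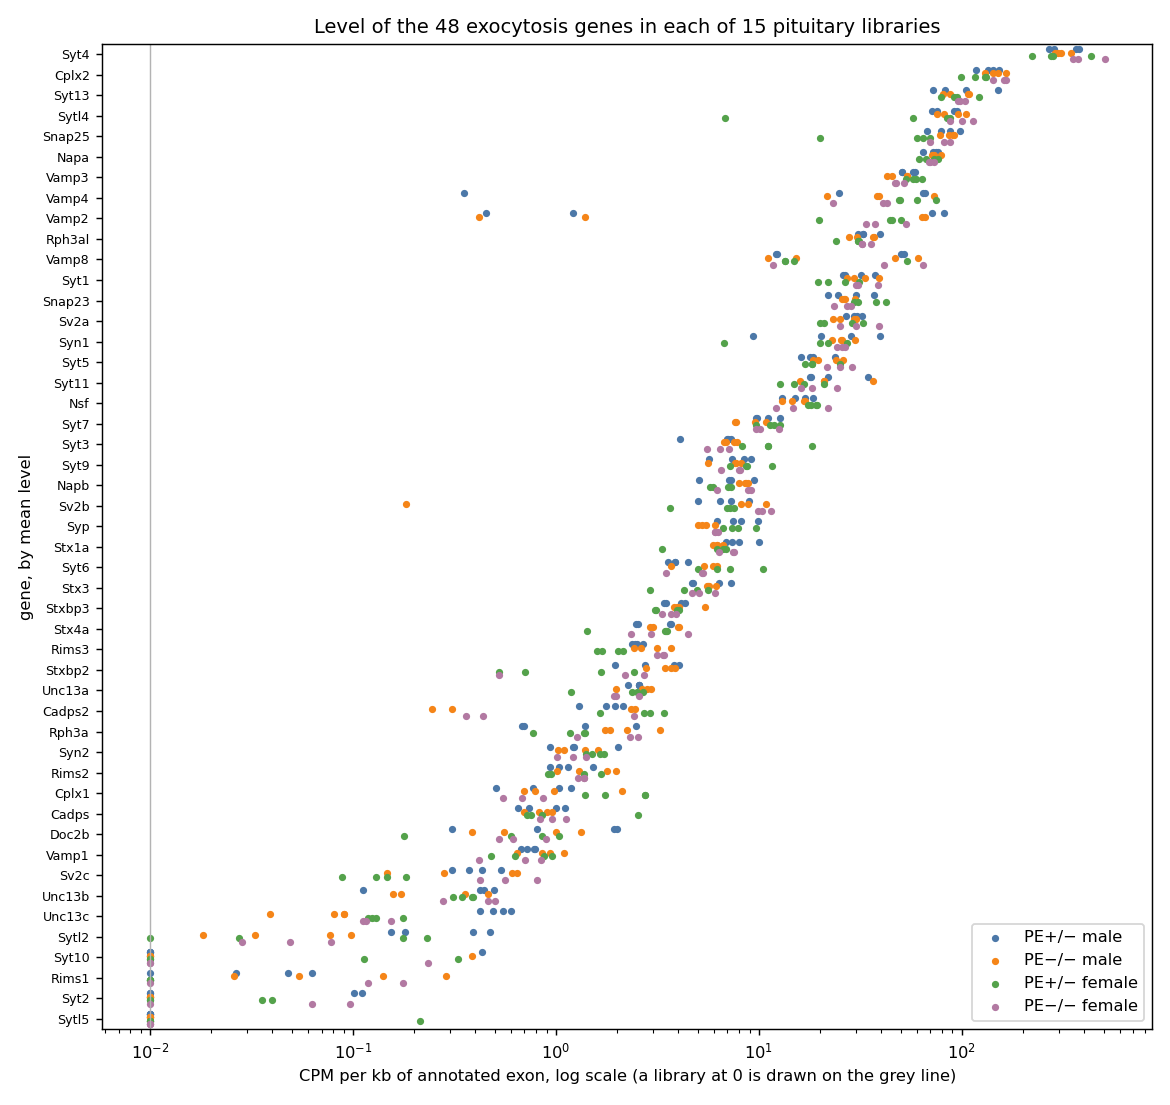
Level of each of the 48 genes in every library, in CPM per kb of annotated exon on a log axis, with genes ordered by their mean over 15 libraries and libraries coloured by group. Levels fall from 333 CPM per kb for Syt4 to 0.0142 for Sytl5, and single libraries of Vamp2, Vamp4, Sv2b and Sytl4 lie far to the left of the rest.

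Sytl5 and Syt2 were at or under the floor of 12 counts in every library. Sytl5, a Rab27 effector, had reads in 1 library only, at 0.49 CPM. Syt2, a fast calcium sensor of some neurons, had reads in 6 libraries, with at most 0.846 CPM. Rims1, an active zone scaffold, was listed at 0 in 6 libraries and reached 2.12 CPM. It was at 0 in every PE+/- female and had 5 to 42 counts in PE-/- males. It had 0 to 10 counts in PE+/- males and 0 to 42 in PE-/- females. Syt10, a calcium sensor of neurons, was at 0 in 10 libraries, with at most 0.793 CPM. No fold change is given for these 4 genes.

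Within the families given shares here 1 gene supplied the bulk of the level per length. This did not hold for every family. Shares and levels here rest on the same lengths, such as 22746 bases and 16 transcripts for Unc13b against 8796 and 2 for Unc13c, and shift with the annotation. Vamp3, Vamp4, Vamp2 and Vamp8 stood at 52.9, 44.5, 38.0 and 31.6 CPM per kb, with Vamp1 at 0.760. The syntaxin genes Stx1a, Stx3 and Stx4a stood at 6.79, 5.32 and 3.20 CPM per kb. Cplx2 made up 99.0% ± 0.717 (SD, n = 15) of the complexins. Syn1 made up 93.6% ± 3.86 of the synapsins, which tether vesicles. Unc13a, the Munc13 gene best known from neurons, made up 80.6% ± 7.10 of the 3 Unc13 genes. Sv2a made up 78.6% ± 6.87 of the SV2 genes, which encode glycoproteins of the vesicle membrane. Snap25 made up 70.6% ± 11.6 of the sum of Snap25 and Snap23, the second being the form found in most tissues. Syt4 alone was 61.7% ± 4.68 of the 11 synaptotagmins.

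Summed over the 48 members, male glands held 5714 ± 446 CPM with 1 enhancer copy and 5728 ± 387 CPM with none (SD, n = 4 each). In females the sum was 5201 ± 573 CPM in PE+/- (n = 4) and 6221 ± 642 CPM in PE-/- glands (n = 3). The groups of both sexes overlapped in this sum.

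Before the comparisons, 6 genes need a remark, because their libraries lay more than 5-fold apart within a group. Vamp2, the main granule SNARE of endocrine cells, had 310, 1.72, 4.64 and 272 CPM in PE+/- males and 244, 5.32, 1.59 and 251 CPM in PE-/- males. Both male groups were thus split into libraries near 250 CPM or above and libraries under 6 CPM. In females Vamp2 ran from 75.1 to 191 CPM in PE+/- and from 128 to 201 CPM in PE-/- glands. Vamp4, a SNARE of the trans-Golgi network and immature granules, was at 1.62 CPM in 1 PE+/- male library against 113 to 300 CPM in the others. Sv2b was at 1.53 CPM in 1 PE-/- male library against 68.3 to 90.7 CPM. Sytl4 was at 34.7 CPM in 1 PE+/- female library against 293 to 450 CPM. Cadps2, a CAPS priming gene, had 2.93, 2.34, 22.4 and 23.4 CPM in PE-/- males and 23.2, 3.43 and 4.204 CPM in PE-/- females. Vamp8, a SNARE of exocrine and blood cells, had 108, 35.2, 141 and 25.7 CPM in PE-/- males and 95.7, 149 and 27.2 CPM in PE-/- females. Such unevenness was not particular to this machinery, since 6 of 36 members with a mean of at least 10 CPM (16.7%) and 1584 of 10418 such genes of the whole table (15.2%) showed it. Its cause was not tested.

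**Figure D2:**
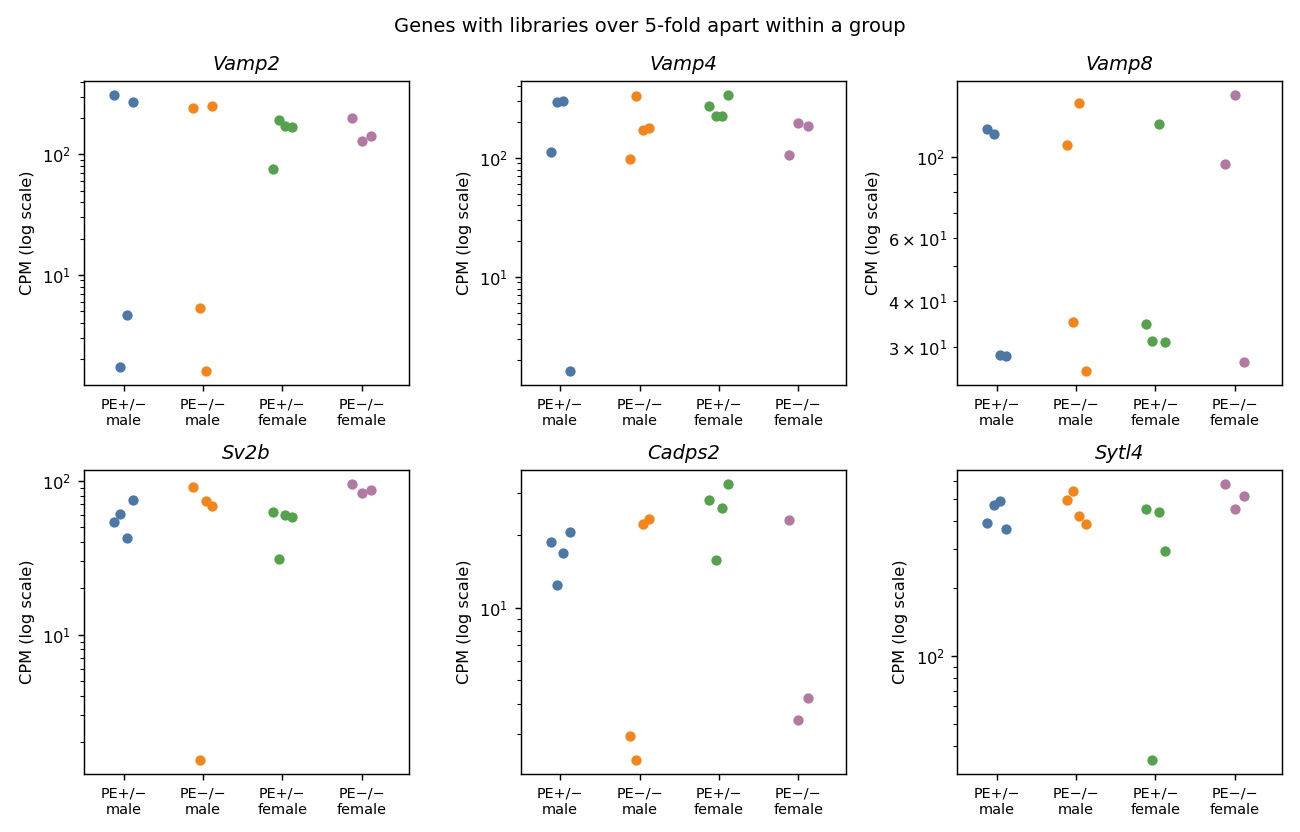
CPM on a log axis in each library of the 6 genes whose libraries lay more than 5-fold apart within a group, by genotype and sex, with 1 point per library. Vamp2 splits both male groups, from 1.59 to 310 CPM, while single libraries set Vamp4, Sv2b and Sytl4 apart.

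The first comparison asked what the loss of the second enhancer copy did to the machinery in males. The machinery moved little on the median: of 44 tested members 24 had a higher and 20 a lower mean in PE-/- glands, with a median log2 fold change of 0.02, against 0.00266 over all 17392 genes tested. By the quasi-likelihood test of edgeR, Unc13c fell and was the single member past an adjusted p of 0.05, while 0.132% of all genes tested passed. At an unadjusted p under 0.05 there were 5 members, beside 6.14% of all genes. The 95% interval of the log2 fold change lay within 1 on either side of 0 for 32 of 44 members (72.7%), and for 59.3% of all genes.

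Unc13c encodes Munc13-3, a priming factor known from the cerebellum. Its gene lies on the minus strand at chr9:73479422-73968966 (mm10), and no annotated gene with 100 or more counts overlaps it. PE+/- males had 5.29, 4.31, 3.72 and 4.85 CPM. PE-/- males had 0.708, 0.345, 0.797 and 0.797 CPM. Every PE-/- library lay below every PE+/- library, and the lowest control was more than 4 times the highest PE-/- value. The log2 fold change was -2.78 (SE 0.320, edgeR adjusted p = 0.0176), or 0.146 times the control level. The counts were small, at 61 to 93 in PE+/- and 9 to 17 in PE-/- libraries. If 1 fragment stands for about 4 counts, as steps in the low values allow, the PE-/- values come from a handful of fragments each. The call was lost when PE+/- male 1, 2 or 4 or PE-/- male 1 or 3 was left out, with log2 fold changes of -2.70, -2.81, -2.75, -2.82 and -2.89 and edgeR adjusted p of 0.0602, 0.0520, 0.0824, 0.0786 and 0.0598. Of the 8 gonadotrope markers 4 fell in the same comparison (Nr5a1, Lhb, Gnrhr and Nr0b1). The other 4 had much lower means but did not pass the test. Their log2 fold changes were -5.22 for Fshb, -5.05 for Tgfbr3l, -4.16 for Grem1 and -3.31 for Spp1 (edgeR adjusted p = 0.0506, 0.0952, 0.0605 and 0.290). The authors, by their own edgeR analysis, counted these 4 as lower in PE-/- males. The part of the 8 markers in the change of Unc13c was not tested.

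Unc13c was the member called in 3 of the 5 comparisons, so that the 250 bases before its start in RefSeq are shown here, with those of Sv2c, the member called in females. They are given 5′ to 3′ on the minus strand of GRCm38.p6, as chr9:73969038-73969287 for Unc13c and chr13:96132578-96132827 for Sv2c. Capitals would mark a motif and there are none.
Unc13c: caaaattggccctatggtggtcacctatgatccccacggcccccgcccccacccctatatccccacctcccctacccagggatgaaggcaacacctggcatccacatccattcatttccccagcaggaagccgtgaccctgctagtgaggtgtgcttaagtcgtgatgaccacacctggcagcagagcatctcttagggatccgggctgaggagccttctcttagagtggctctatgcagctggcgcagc
Sv2c: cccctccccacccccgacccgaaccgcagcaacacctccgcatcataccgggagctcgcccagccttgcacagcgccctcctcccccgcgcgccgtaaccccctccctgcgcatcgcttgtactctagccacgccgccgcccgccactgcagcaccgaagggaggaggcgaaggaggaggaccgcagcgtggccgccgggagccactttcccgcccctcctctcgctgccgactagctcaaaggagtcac
The Sv2c promoter was the richer in CpG, with 32 such dinucleotides in its window of 300 bases, which ends 50 bases into the gene, against 6 for Unc13c and a median of 7 over 32851 promoters. Its GC content was 71.7%, that of Unc13c 59.3%, and the median of all promoters 52.7%. On both strands, neither window held the NR5A1 element AAGGTCA, present in 4.72% of all promoters. Neither held the oestrogen receptor palindrome, GGTCA and TGACC with 3 bases between, present in 0.07%, nor the cyclic AMP response element TGACGTCA, present in 1.79%. Of the 38 members with a promoter in the table, Syt2 and Syt6 held the NR5A1 element, and Napa, Stxbp3 and Syn1 held the cyclic AMP element. A match is a match of letters only, and the absence of one says nothing of a factor.

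In males the fusion genes themselves stayed close to the control level, in so far as 4 libraries a group could show. Snap25 had 460, 663, 540 and 596 CPM in PE+/- and 617, 585, 625 and 529 CPM in PE-/- males, a log2 fold change of 0.06 with a 95% interval from -0.24 to 0.36. Snap23 had 94.6 to 159 CPM in PE+/- and 110 to 128 CPM in PE-/- males, a log2 fold change of -0.07 with an interval from -0.46 to 0.32. The groups overlapped for both genes. Stx1a, the syntaxin of neurons and endocrine cells, had 26.8, 21.4, 19.7 and 18.3 CPM in PE+/- and 16.6, 17.8, 15.9 and 16.6 CPM in PE-/- males. Its groups did not overlap, but its log2 fold change of -0.37 (SE 0.148) did not pass the test (edgeR adjusted p = 0.744). For Vamp2, split as above, the interval ran from -4.26 to 3.78, so that these libraries could not show even a large change of Vamp2. Of the 10 SNARE genes 5 had a higher and 5 a lower mean, with log2 fold changes from -0.37 to 0.26.

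Among the synaptotagmins of males, Syt1, the fast calcium sensor, had 217 to 313 CPM in PE+/- and 226 to 327 CPM in PE-/- glands. Its log2 fold change was 0.08, with an interval from -0.30 to 0.46. The 10 tested members of this group, Doc2b included, spread evenly, 5 with higher and 5 with lower means, and none passed the test. Cadps, the CAPS priming gene of dense-core granules, had 9.76 to 16.6 CPM in PE+/- and 10.5 to 14.4 CPM in PE-/- males, a log2 fold change of -0.05 with an interval from -0.51 to 0.42. Unc13b, a Munc13 gene expressed in many tissues, had 10.01, 2.55, 9.64 and 11.3 CPM in PE+/- and 10.5, 3.6, 3.94 and 8.14 CPM in PE-/- males, and its interval from -1.52 to 0.80 was wide. Nsf, the ATPase that takes spent SNARE complexes apart, had 109 to 154 CPM in PE+/- and 109 to 140 CPM in PE-/- males, with an interval from -0.39 to 0.28. Its adaptor Napa was among the steadiest members, with 244 to 301 CPM over the 8 male libraries.

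The genes that followed Unc13c in the order of p in males did not pass. Sytl2, a Rab27 effector, had 5.43, 2.13, 6.59 and 2.52 CPM in PE+/- and 0.253, 0.460, 1.08 and 1.37 CPM in PE-/- males. Its counts were 39 to 108 in PE+/- and 5 to 24 in PE-/- libraries. Its groups did not overlap, and its log2 fold change of -2.40 (SE 0.598) had an edgeR adjusted p of 0.357. DESeq2 called it, at an adjusted p of 0.0105, as it did 1.19% of all genes. Syp, which encodes synaptophysin of the vesicle membrane, had 51.5, 42.4, 38.9 and 32.4 CPM in PE+/- and 28.7, 26.1, 27.2 and 31.9 CPM in PE-/- males. The highest PE-/- value lay just under the lowest control, and the log2 fold change of -0.54 (SE 0.163) did not pass (edgeR adjusted p = 0.538).

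The remaining roles in males showed no call. The Munc18 genes Stxbp2 and Stxbp3 had log2 fold changes of 0.14 and 0.17. Of the 6 vesicle membrane and synapsin genes 3 had a higher and 3 a lower mean, from -0.54 for Syp to 0.09 for Syn1. Rims2 and Rims3, the 2 tested RIM genes, were at 0.38 and 0.24. Among the 4 tested Rab effectors the values ran from -2.40 for Sytl2 to 0.79 for Rph3a, which encodes rabphilin. The priming factors other than Unc13c lay between -0.43 for Cadps2 and 0.06 for Unc13a.

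**Figure D3:**
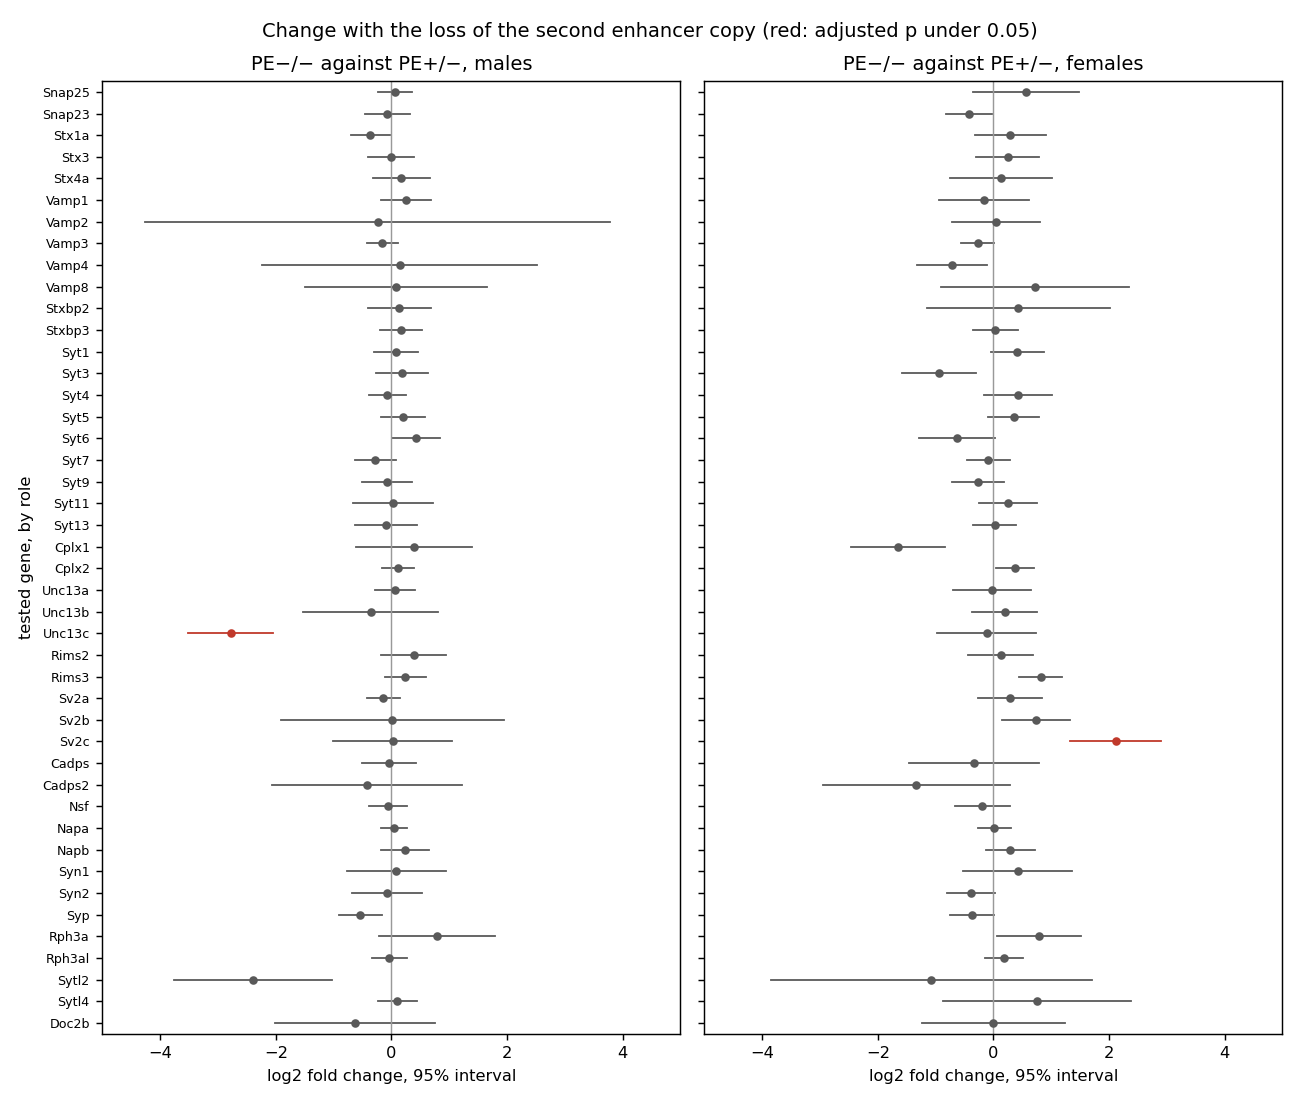
Log2 fold change of each tested gene, PE-/- against PE+/-, with its 95% interval, in males (left) and females (right), in order of role, with genes past an adjusted p of 0.05 in red. Unc13c, at -2.78, stands alone in males and Sv2c, at 2.11, in females, while the interval of Vamp2 in males runs from -4.26 to 3.78.

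The second comparison put the same question in females. Of 44 tested members 26 had a higher and 18 a lower mean in PE-/- glands, with a median log2 fold change of 0.09, against 0.00175 over all 18085 genes tested. Again a single member passed an adjusted p of 0.05, Sv2c, which rose, while 1.05% of all genes passed. At an unadjusted p under 0.05 there were 9 members, beside 16.1% of all genes. The interval lay within 1 on either side of 0 for 25 of 44 members (56.8%), and for 44.3% of all genes.

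Sv2c encodes a glycoprotein of secretory vesicles that also serves as an entry receptor for botulinum neurotoxin. PE+/- females had 0.860, 1.42, 1.25 and 1.77 CPM. PE-/- females had 4.08, 7.86 and 5.43 CPM. The groups did not overlap, and the log2 fold change was 2.11 (SE 0.338, edgeR adjusted p = 0.0425), 4.32 times the control level. The counts were small, at 11 to 34 in PE+/- and 66 to 254 in PE-/- libraries, so that the lowest control lay under the floor of 12. The call rested on every library, since leaving out any 1 of the 7 raised the edgeR adjusted p to between 0.0549 and 0.165, with log2 fold changes from 1.82 to 2.32. It was also lost with library totals in place of TMM (edgeR adjusted p = 0.0590) and without the filter on low counts (edgeR adjusted p = 0.0592). In males both groups stood where PE-/- females stood or below, with 2.97 to 5.22 CPM in PE+/- and 1.42 to 6.20 CPM in PE-/- glands and a log2 fold change of 0.02 (edgeR adjusted p = 0.997).

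A further gene on the same strand lies within Sv2c, and whether its reads entered the Sv2c count was not tested. Sv2c spans chr13:95954594-96132577 (mm10), and Gm20075, at chr13:96079216-96081376, sits in an intron and shares 0 exonic bases with it. Gm20075 was by far the more abundant, with 58.8 ± 5.27 CPM in PE+/- females (SD, n = 4) and 45.3 ± 2.86 CPM in PE-/- females (SD, n = 3). With both genes counted as 1, the log2 fold change in females was -0.24 (edgeR adjusted p = 0.420). That sum is made mostly of Gm20075 and follows it, so that it cannot show a change of Sv2c. In females Prl, the prolactin gene of lactotropes, also differed by genotype, with 21965 to 35113 CPM in PE+/- and 4459 to 5603 CPM in PE-/- glands (log2 fold change -2.58, edgeR adjusted p = 0.00698). The other lactotrope markers did not pass, with log2 fold changes of -1.10 for Angpt1 (edgeR adjusted p = 0.245) and 0.21 for Drd2 (edgeR adjusted p = 0.6999). The gonadotrope sums are given above. The part of these genes in the change of Sv2c was not tested.

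Rims3 and Cplx1 came next in females and did not pass in edgeR. Rims3, a short relative of the RIM scaffolds, had 17.1, 12.6, 13.4 and 16.0 CPM in PE+/- and 27.1, 26.8 and 25.0 CPM in PE-/- females. Its groups lay well apart, 0.82 apart on the log2 scale (SE 0.159, edgeR adjusted p = 0.0673). It was called by DESeq2 (adjusted p = 0.000297), as were 7.96% of all genes, and when all 15 libraries shared 1 edgeR fit (adjusted p = 0.0111). Cplx1, the complexin better known from the brain, had 3.83, 6.03, 6.04 and 3.05 CPM in PE+/- and 1.48, 1.21 and 1.88 CPM in PE-/- females. All PE-/- values were lower, and the log2 fold change was -1.65 (SE 0.347, edgeR adjusted p = 0.0801). DESeq2 called it (adjusted p = 0.00131).

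No gene of the fusion core passed the test in females either. Snap25 had 475, 438, 409 and 136 CPM in PE+/- and 592, 476 and 558 CPM in PE-/- females, a log2 fold change of 0.56 with an interval from -0.36 to 1.48. The low library alone held 136 CPM, and without it the PE+/- females were at 409 to 475 CPM. Snap23 had the opposite sign and no overlap, with 127 to 183 CPM in PE+/- and 101 to 123 CPM in PE-/- females, and did not pass the test (log2 fold change -0.42, edgeR adjusted p = 0.277). Stx1a had 8.88 to 18.3 CPM in PE+/- and 17.01 to 20.01 CPM in PE-/- females, and the interval ran from -0.33 to 0.90. Vamp2 had a log2 fold change of 0.04 with an interval from -0.73 to 0.81. Of the 10 SNARE genes 6 had a higher and 4 a lower mean, and none passed.

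For the regulators in females, Syt1 had 163 to 259 CPM in PE+/- and 250 to 323 CPM in PE-/- glands, a log2 fold change of 0.41 with an interval from -0.05 to 0.88. Unc13b had 7.08 to 8.91 CPM in PE+/- and 6.28 to 11.4 CPM in PE-/- females. Cadps was at 38.4 CPM in 1 PE+/- female library and at 10.8 to 12.8 CPM in the others, against 12.5 to 16.9 CPM in PE-/- females. The groups overlapped, and the log2 fold change of -0.34 became 0.31 without it. Nsf had 147 to 161 CPM in PE+/- and 102 to 183 CPM in PE-/- females, with an interval from -0.68 to 0.29. Unc13c, the member called in males, had 1.09, 1.55, 1.14 and 1.04 CPM in PE+/- and 0.988, 1.02 and 1.36 CPM in PE-/- females. These groups overlapped, with a log2 fold change of -0.11 and an interval from -0.97 to 0.74. The counts of Unc13c were 14 to 37 in PE+/- and 16 to 33 in PE-/- females, close to the floor of 12.

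The other members in females were spread to both sides. Syt3, a calcium-binding synaptotagmin, had 25.7, 34.7, 34.8 and 57.0 CPM in PE+/- and 17.3, 22.2 and 20.1 CPM in PE-/- females. Its groups did not overlap, and the log2 fold change of -0.94 (SE 0.275) did not pass the test (edgeR adjusted p = 0.154). DESeq2 called it (adjusted p = 0.0347). The 10 tested synaptotagmin genes, Doc2b included, lay between -0.94 for Syt3 and 0.43 for Syt4, with 5 means higher and 5 lower. Cplx2, the main complexin, was at 0.38, opposite in sign to Cplx1, and did not pass (edgeR adjusted p = 0.246). Of the 6 vesicle membrane and synapsin genes 4 had a higher and 2 a lower mean. The Rab effectors ran from -1.08 for Sytl2 to 0.79 for Rph3a, and the 3 disassembly genes from -0.20 for Nsf to 0.30 for Napb.

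The sexes were then compared within each genotype, comparisons that share their libraries with those above. In PE+/- glands 44 members were tested, 15 with a higher and 29 with a lower mean in females. Unc13c was the only one past an adjusted p of 0.05, beside 0.67% of all genes, and 8 had an unadjusted p under 0.05, beside 13.5% of all genes. Unc13c was lower in females, by -1.90 on the log2 scale (SE 0.253, edgeR adjusted p = 0.0217), from the values given above. The call was lost when PE+/- female 3 or 4 or PE+/- male 1, 2 or 4 was left out, with log2 fold changes of -1.87, -1.84, -1.81, -1.93 and -1.87 and edgeR adjusted p of 0.0697, 0.0749, 0.0756, 0.0709 and 0.0865. Every PE+/- female lay below every PE+/- male for Sv2c too, but it did not pass (log2 fold change -1.58, SE 0.307, edgeR adjusted p = 0.0729). Syt6, a synaptotagmin that the sperm acrosome also uses, had 26.0, 20.8, 22.6 and 22.4 CPM in PE+/- males and 29.2, 41.9, 60.9 and 36.4 CPM in PE+/- females. Every female lay above every male, but the log2 fold change of 0.88 (SE 0.225) did not pass (edgeR adjusted p = 0.141). DESeq2 called it (adjusted p = 0.0190), and it also called Unc13c, Sv2c and Cplx1 here, beside 5.38% of all genes.

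In PE-/- glands no member passed, of 45 tested, by edgeR or by DESeq2, while 0.0494% of all genes passed in edgeR and 0.227% in DESeq2. Only Syt4 had an unadjusted p under 0.05, as did 3.37% of all genes. Syt4 had 1349, 1195, 1124 and 1157 CPM in PE-/- males and 1973, 1372 and 1453 CPM in PE-/- females, or 0.41 more on the log2 scale (SE 0.148, edgeR adjusted p = 0.997). Stxbp2, which encodes Munc18-2, ran from 11.6 to 16.1 CPM in males, while the females stood at 11.2, 9.13 and 2.19 CPM, differing by -0.93 on the log2 scale (SE 0.489, edgeR adjusted p = 0.997). Unc13c differed by 0.77 on the log2 scale, with every PE-/- female now above every PE-/- male (SE 0.429, edgeR adjusted p = 0.997).

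**Figure D4:**
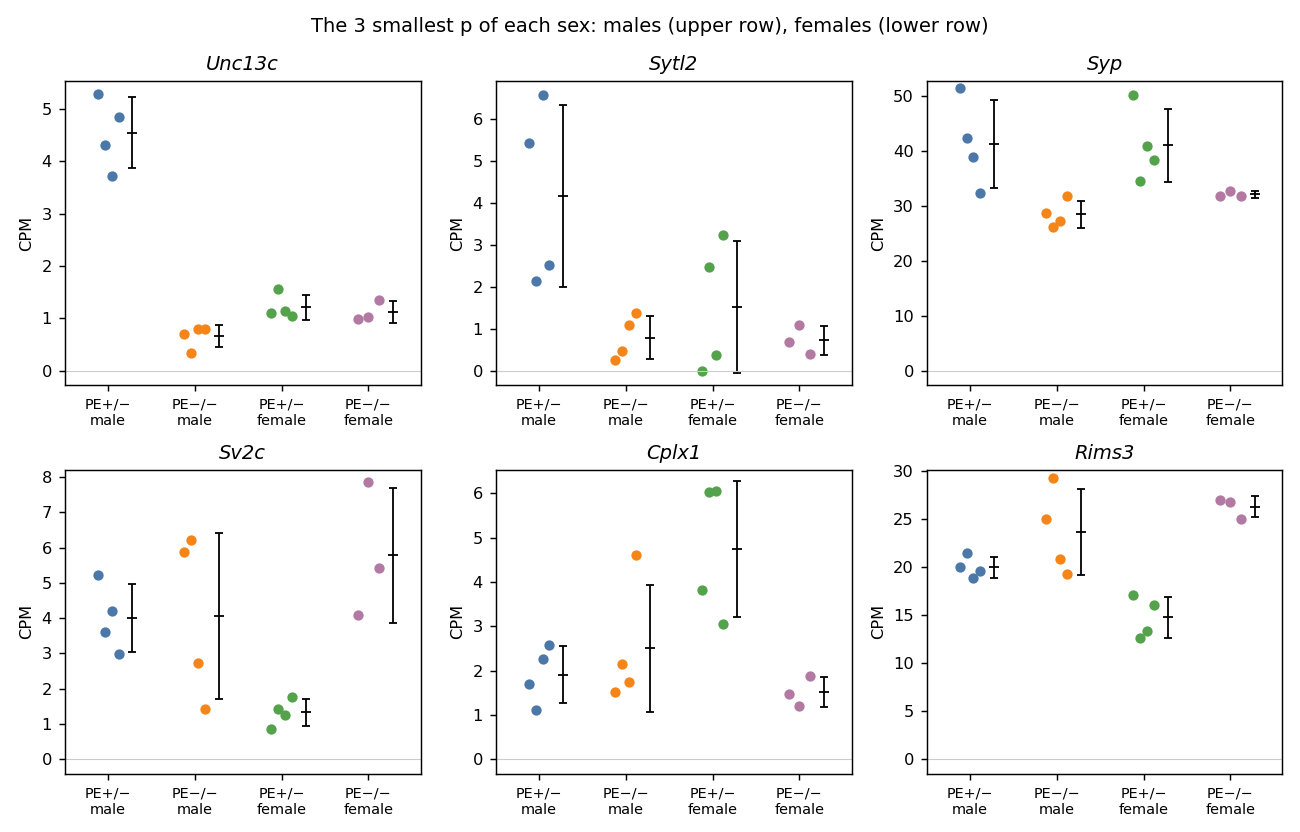
CPM in each library of the 3 genes with the smallest p in males (upper row) and in females (lower row), by genotype and sex, with 1 point per library and the mean and SD beside it. Unc13c stands at 3.72 to 5.29 CPM in PE+/- males and at 0.345 to 1.55 CPM in the other groups, and Sv2c is lowest in PE+/- females, at 0.860 to 1.77 CPM.

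Whether the genotype effect differed between the sexes was tested by an interaction term over all 15 libraries. Of 47 tested members Unc13c alone passed, beside 0.161% of all genes, and 9 had an unadjusted p under 0.05, beside 10.1% of all genes. The log2 fold change of Unc13c was higher in females by 2.67 (SE 0.422, edgeR adjusted p = 0.0267), with the values of males and females given above. This call, the call in males and the call between the sexes of PE+/- mice all rest on the same 4 PE+/- male libraries, and they are not independent of each other. It was lost in 9 of the 15 fits without 1 library, namely without PE+/- male 1, 2 or 4, PE-/- male 1 or 4, PE+/- female 3 or 4, or PE-/- female 1 or 3, with values over all 15 fits from 2.45 to 2.82 and edgeR adjusted p from 0.0334 to 0.0849. Among the 3 Unc13 genes, Unc13c made up 15.3% ± 1.24 of the level per length in PE+/- males (SD, n = 4) and 2.49% ± 0.510 in PE-/- males (SD, n = 4). In females it made up 5.37% ± 1.63 in PE+/- (SD, n = 4) and 4.81% ± 1.16 in PE-/- glands (SD, n = 3). Sv2c had an interaction of 2.09 (SE 0.599) and Cplx1 one of -2.02 (SE 0.580), and neither passed (edgeR adjusted p = 0.210 for both).

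The wider pathway was described by 49 further genes, among them the small Rab3 GTPases, the liprins and the large active zone scaffolds. In males 45 were tested and none passed in edgeR. Of the 45, 6 had an unadjusted p under 0.05, beside 6.14% of all genes. DESeq2 called 1 of 45, beside 1.19% of all genes. In females 46 were tested, of which 1 rose and 1 fell in edgeR, beside the 1.05% of all genes that passed. Of the 46, 14 had an unadjusted p under 0.05, beside 16.1% of all genes. DESeq2 called 8 of 46, beside 7.96% of all genes. The genes called in edgeR were both Rab3 genes, whose products mark secretory granules and recruit effectors such as rabphilin. Rab3d fell from 385 ± 48.3 CPM in PE+/- females (SD, n = 4) to 171 ± 8.77 CPM in PE-/- females (SD, n = 3), a log2 fold change of -1.18 (edgeR adjusted p = 0.0207). Rab3b rose from 84.0 ± 22.5 to 210 ± 6.82 CPM, a log2 fold change of 1.31 (edgeR adjusted p = 0.0435). Both calls depended on the setting: without 1 library Rab3d passed in 3 of 7 fits (edgeR adjusted p from 0.0121 to 0.105) and Rab3b in 1 of 7 (0.0133 to 0.173). The log2 fold changes in these fits were -1.26 to -1.13 and 1.18 to 1.51, and 29 to 244 of all genes passed, against 189. Both genes passed in DESeq2 (adjusted p = 1.17e-11 and 1.24e-05) and in 1 fit on all 15 libraries (edgeR adjusted p = 0.00084 and 0.0219). Neither passed with the replicate block (edgeR adjusted p = 0.207 and 0.225). In males Rab3d stood at 215 ± 19.5 CPM in PE+/- and 201 ± 13.6 CPM in PE-/- glands (SD, n = 4 each), close to the level of PE-/- females. The genotype effect on Rab3d differed between the sexes by -1.07 on the log2 scale (edgeR adjusted p = 0.0267), and in PE+/- mice Rab3d was higher in females by 0.84 (edgeR adjusted p = 0.0340). These last calls passed in 7 of 15 and 1 of 8 fits without 1 library. Between the sexes of PE+/- mice 44 were tested and edgeR called 1, beside 0.67% of all genes. There 14 of 44 had an unadjusted p under 0.05, beside 13.5% of all genes, and DESeq2 called 6 of 44, beside 5.38%. For the interaction 46 were tested and edgeR called 1, beside 0.161% of all genes. An unadjusted p under 0.05 was found for 11 of 46, beside 10.1% of all genes. Between the sexes of PE-/- mice 46 were tested and none passed by edgeR or DESeq2, beside 0.0494% and 0.227% of all genes. In that comparison 1 had an unadjusted p under 0.05, beside 3.37% of all genes.

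Markers of other cell types stood beside these values. The 31 marker genes of stem, posterior lobe, neuron, myelin, endothelial, immune and erythroid cells held none past an adjusted p of 0.05 in edgeR in either genotype comparison. At an unadjusted p under 0.05 there were 3 of 26 tested in males, beside 6.14% of all genes, and 7 of 24 in females, beside 16.1%. DESeq2 called 1 in males and 4 in females, beside 1.19% and 7.96% of all genes. The posterior lobe list, whose tissue is rich in nerve terminals, varied between libraries of 1 group, with sums of 1.90 to 88.8 CPM in PE+/- males and 2.95 to 70.6 CPM in PE-/- males. In females the sums were 5.71 to 19.2 CPM in PE+/- and 1.31 to 4.45 CPM in PE-/- glands, where Nkx2-1 was at 0. Of 8 neuron markers, Gad1 and Neurod6 were at 0 in males, and Neurod6, Avp and Oxt in females. Others had reads, and the neuron sums were 51.1 to 71.4 CPM in PE+/- and 51.5 to 76.3 CPM in PE-/- males. In females they were 68.5 to 119 CPM in PE+/- and 56.8 to 67.1 CPM in PE-/- glands. The largest part came from Slc17a6, with means of 32.9, 33.6, 75.2 and 41.5 CPM in the same order of groups. The part of these marker lists in the level of any member was not tested.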

How the data were processed

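Whole pituitary RNA of 15 samples was sequenced as paired ends. The authors used cutadapt for trimming, STAR for mapping to mm10 and featureCounts for counting, as their methods state. The table they deposited holds estimated counts, all whole numbers and not normalized, in rows named by assembled locus and symbol. The step that gave such names is not given in the sources used here. Totals were 12982794 to 30238443 counts per library, and the floor was set at 12 counts per library. Members and lists were chosen with earlier results of these data known.

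The main test was edgeR 4.0.16 (R 4.3.3) quasi-likelihood with TMM scaling and filterByExpr (minimum count 10), on the libraries compared, two-sided, with Benjamini-Hochberg adjustment over all genes tested and a threshold of 0.05. SE is the log2 fold change divided by the root of F. Intervals are 95% and use the degrees of freedom of that fit. The scripts were tested on simulated counts, in which some genes were given a known change. In each comparison 92 to 97 changed genes of each size were tested, among 17163 to 18217 simulated. Of those with a log2 change of 1, 6.19% passed in males and 0% in females. Between the sexes 5.32% passed in PE+/- and 0% in PE-/- mice. At a log2 change of 2 the shares were 58.3%, 28.1%, 54.3% and 47.9% in the same order. A gene that did not pass may thus still have changed. The shares hold for data with so few changed genes, because the adjustment depends on how many genes change. In the real females 16.1% of genes had an unadjusted p under 0.05, so that the simulated shares need not carry over. Alternatives were DESeq2 1.42.0, its size factors in edgeR, library totals, no filter, 1 fit on all libraries, a replicate block, counts summed per locus, counts divided by 4, and each library left out. The division by 4 was tried because in genes with 1 transcript the values 5, 9 and 13 were more frequent than their neighbours, so that 1 fragment may stand for about 4 counts. After the data were seen, Gm20075 was added to Sv2c and the 6 uneven members were left out.

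Members were named with values if past the threshold in any comparison, if among the 3 smallest p of a comparison, if in a core set of 8 (Snap25, Snap23, Stx1a, Vamp2, Syt1, Cadps, Unc13b and Nsf), or if at or under the floor in every library, with others as examples of their role. Lengths came from GENCODE M21, promoters from RefSeq (GRCm38.p6). Of the members, 15 overlap an annotated gene with 100 or more counts, and strand was not stated for the counting, so that reads of overlapping genes may be mixed. Counts of replicates differed by far more than sampling noise in every pair. Same-numbered samples did not deviate together, so that replicate numbers were not taken as pairs.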

Additional observations from a re-analysis of the deposited data

Results flagged for a closer look

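A library far from the other 3 of its group was found in 8 of 130 groups of 4 libraries tested, where chance alone gives about 1 in 20. Of these, 5 were in PE+/- females. Stx4a, a syntaxin of the plasma membrane, was at 3.35 CPM in PE+/- female 2, against 8.13 to 8.30 CPM. Vamp8 was at 123.9 CPM in PE+/- female 3, against 31.0 to 34.6 CPM. Cadps was at 38.39 CPM in PE+/- female 3, against 10.8 to 12.8 CPM. Rph3al, the Rab effector Noc2, was at 92.08 CPM in PE+/- female 3, against 117 to 119 CPM. Sv2b was at 30.74 CPM in PE+/- female 2, against 58.5 to 62.9 CPM. In males, Syt3 was at 12.8 CPM in PE+/- male 2, against 21.8 to 22.8 CPM. Unc13a was at 28.48 CPM in PE+/- male 3, against 32.2 to 32.5 CPM. Stxbp3, which encodes Munc18-3, was at 29.05 CPM in PE-/- male 3, against 20.4 to 21.5 CPM. The genotype effect on Unc13c differed between the sexes by 2.67 on the log2 scale in the interaction test (edgeR adjusted p = 0.0267).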

How the results depend on the processing

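Few calls were made and most depended on a setting, and the cause was not tested. Members past the threshold in males numbered 2 with DESeq2, 0 with the replicate block and 0 to 1 without 1 library, against 1. In females they numbered 4 with DESeq2, 2 with 1 fit on all libraries, 0 with library totals, 0 without the filter, 0 with the block and 0 (0 to 0) without 1 library, against 1. Between the sexes of PE+/- mice they numbered 4 with DESeq2, 2 with counts divided by 4, 0 with the block and 0 to 1 without 1 library, against 1. For the interaction they numbered 0 with the block and 0 to 1 without 1 library, against 1. DESeq2 called 1.19%, 7.96% and 5.38% of all genes in males, in females and between the sexes of PE+/- mice, against 0.132%, 1.05% and 0.67% in edgeR, and the fit on all libraries called 714 genes in females, against 189. There library totals called 144 genes and no filter 123. Between the sexes of PE+/- mice the division by 4 called 154, against 115. The block called 0 of all genes in males, 1 in females, 0 between the sexes of PE+/- mice and 11 for the interaction. Without 1 library 11 to 35 genes passed in males, against 23, and 29 to 244 in females. Between the sexes of PE+/- mice 34 to 113 passed, and for the interaction 7 to 71, against 31. None of the 6 uneven members was called, so that leaving them out could not change these counts. Under the block the log2 fold change of Unc13c in males was -2.82 (edgeR adjusted p = 0.281) and that of Sv2c in females 2.26 (edgeR adjusted p = 0.207), but same-numbered samples did not pair: the correlation of their deviations was -0.0801 to 0.00417 in males and -0.0471 to 0.132 in females. Signs turned for members that had not been called. The sum of Sv2c and Gm20075 also differed in sign from Sv2c, but it follows the far more abundant Gm20075 and cannot test Sv2c. With library totals Snap23, Cadps and Nsf in males were at 0.0112, 0.0396 and 0.0252. Without 1 library, males gave Snap25 -0.0248 to 0.145, Snap23 -0.175 to 0.0811, Vamp2 -0.82 to 0.43, Syt1 -0.0291 to 0.192, Cadps -0.163 to 0.0896 and Nsf -0.136 to 0.0263, and females gave Vamp2 -0.18 to 0.17 and Cadps -0.52 to 0.31. The sum of Sv2c and Gm20075 was at -0.24 in females, 0.0834 between the sexes of PE+/- mice and -0.16 in the interaction. Unc13c and Sv2c rest on few counts per library. Unc13c had 9 to 93 counts in males and 14 to 37 in females, and Sv2c had 11 to 254 in females. With 3 or 4 libraries a group the intervals of many members were wide enough to hold a log2 change of 1.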
